A study of Mus musculus with 4 samples.

Results

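The 9 genes described here were *Shh*, *Ptch1*, *Hhip*, *Gli1*, *Gli2*, *Gli3*, *Nkx6-1*, *Nkx2-9* and *Olig2*, a set of Hedgehog pathway genes and neural genes of the ventral side, found by their symbols among the 31055 genes of the count tables. All 9 were present, each with at least 1 unique molecular identifier (UMI, a tag that marks a transcript copy) in every library. The data were droplet single-cell RNA-seq (scRNA-seq, 3′ end counting) of the caudal part of mouse embryos at E8.5, taken from crosses of *Grhl3*+/- mice. WT embryos (*Grhl3*+/+) were compared with *Grhl3*-null embryos (*Grhl3*-/-), which lack the transcription factor GRHL3 in every cell and fail to close the caudal neural tube. There were 2 libraries per genotype, made from a pool of 5 WT embryos and a pool of 3 *Grhl3*-null embryos, so the spread between libraries contains no variation between embryos and each p-value compares 2 pools. No other allele or treatment is given in the labels.

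Hedgehog signalling begins when the secreted ligand Sonic hedgehog (*Shh*) binds Patched 1 (*Ptch1*), a membrane receptor that otherwise holds the transducer Smoothened silent. Relieved of that block, Smoothened acts through the primary cilium on the GLI proteins. *Gli2* encodes the main activator, *Gli3* is processed largely into a repressor, and *Gli1* encodes an activator that is itself switched on by the pathway. *Ptch1* and *Hhip*, a membrane protein that captures the ligand, are also transcribed in response and are used as readouts of signalling. In the developing spinal cord the ligand comes from the notochord and later from the floor plate, and graded exposure sets up the ventral progenitor domains that express the homeodomain factors *Nkx6-1* and *Nkx2-9* and the motor neuron progenitor factor *Olig2*. The gut endoderm is a further source, which signals to the surrounding mesenchyme.

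The members lie on separate chromosomes for the most part. In mm10 coordinates *Shh* spans chr5:28456815-28467256, *Ptch1* chr13:63508328-63573598, *Hhip* chr8:79965851-80058006, *Gli1* chr10:127329882-127341974 and *Gli2* chr1:118834132-119053619, all on the minus strand. *Gli3* spans chr13:15463235-15730026 on the plus strand. *Nkx6-1* (chr5:101658139-101664996, minus), *Nkx2-9* (chr12:56611389-56613284, minus) and *Olig2* (chr16:91225457-91228677, plus) are short genes, and all 9 are annotated as protein coding.

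GLI proteins recognise the consensus GACCACCCA, whose core is CCACCC. A RefSeq promoter window (250 bases before to 50 after the start, GRCm38.p6, the assembly that mm10 names) was at hand for 7 of the 9 members. The full consensus, read on both strands (GACCACCCA or TGGGTGGTC), was in 0 of the 7 windows and in 83 of the 32851 promoters searched (0.253%). The core alone, which is contained in the consensus (CCACCC or GGGTGG), was in 5 of 7, against 31.5% of all promoters. *Gli2* held 2 copies, *Gli3*, *Hhip*, *Nkx2-9* and *Olig2* held 1 copy each, and *Ptch1* and *Nkx6-1* held none. The 250 bases before the RefSeq start of that table are printed below, 5′ to 3′ on the gene's strand, for *Ptch1* and *Hhip*, the readout genes called between the genotypes in mesenchymal cells, and for *Nkx2-9*, the neural factor that was not called in the neuroepithelium. They lie at chr13:63565736-63565985, chr8:80058009-80058258 and chr12:56613285-56613534, all on the minus strand, and capitals mark the core. The RefSeq start used for *Ptch1* lies inside the gene span given above, which begins at another transcript start further upstream. A match of these letters is a description of the window and not a bound site.
Ptch1: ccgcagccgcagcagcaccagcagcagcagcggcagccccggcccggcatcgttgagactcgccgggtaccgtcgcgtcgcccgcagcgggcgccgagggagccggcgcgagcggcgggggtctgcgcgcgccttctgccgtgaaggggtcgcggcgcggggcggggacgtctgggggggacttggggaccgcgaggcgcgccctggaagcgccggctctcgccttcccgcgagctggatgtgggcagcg
Hhip: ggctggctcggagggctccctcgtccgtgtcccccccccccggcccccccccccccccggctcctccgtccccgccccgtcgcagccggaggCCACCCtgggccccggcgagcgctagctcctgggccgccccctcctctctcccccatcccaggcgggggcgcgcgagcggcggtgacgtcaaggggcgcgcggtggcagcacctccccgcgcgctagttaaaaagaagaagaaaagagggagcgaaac
Nkx2-9: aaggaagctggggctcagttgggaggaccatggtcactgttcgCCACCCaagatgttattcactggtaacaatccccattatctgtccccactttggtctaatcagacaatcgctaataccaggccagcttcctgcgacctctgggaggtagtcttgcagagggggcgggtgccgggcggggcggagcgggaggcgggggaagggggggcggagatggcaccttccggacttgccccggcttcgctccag
The *Ptch1* window has no core, and the *Hhip* and *Nkx2-9* windows hold it far from the start, at 158 and 207 bases before it.

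After filtering, 5459 and 5116 WT cells and 4842 and 4781 *Grhl3*-null cells were left, with medians of 33391 to 38070 UMIs per cell. The targeted gene, *Grhl3*, was counted 878 and 803 times in WT and 12 and 14 times in *Grhl3*-null. Cells were grouped by clustering into 14 classes named from marker genes (19673 cells) and 1 unnamed cluster (525 cells). The names are therefore rebuilt, and "-like" is written after each. All 9 members were among the genes used for clustering, so levels across classes are a description without a test. *Shh* is also among the markers that name the notochord-like class, and *Nkx6-1* among those that name the neuroepithelium-like class. Their high levels in those classes are therefore partly set by the naming. The sex and the posterior *Hox* level of the cells moved with genotype. Male cells, called from Y-linked genes and *Xist*, made up 26.5% and 27.0% of the sexed WT cells and 55.6% and 57.5% of the sexed *Grhl3*-null cells. The 12 *Hox* genes of the most posterior groups were used to mark axial level. They summed to 109 and 113 CPM (UMIs of a gene per 1000000 UMIs of those cells) in WT and 24.5 and 23.8 CPM in *Grhl3*-null cells. Their values by class are given with the results. The labels give no axial level, so axial level below stands for the counts of these genes. The embryo and its exact stage cannot be told apart from it.

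*Shh*, the ligand, was a transcript of 2 classes. In the notochord-like cells, which also led in *Noto*, *Nog* and *Cthrc1*, its level was 364 ± 65.9 CPM in WT (SD, n = 2 libraries) and 448 ± 16.8 CPM in *Grhl3*-null. In the gut-like cells it was 110 ± 6.13 CPM and 115 ± 7.72 CPM. Every other class was at 2.31 CPM or less in WT and 2.48 CPM or less in *Grhl3*-null. Although notochord-like cells were few (64, 75, 44 and 55 in WT replicates 1 and 2 and *Grhl3*-null replicates 1 and 2, the order of all values in fours below), they held 26.0% to 39.9% of a library's *Shh* UMIs, and gut-like cells held 52.7% to 64.5%. A *Shh* UMI was found in 92.2%, 88.0%, 88.6% and 94.5% of notochord-like cells and in 58.4%, 53.1%, 62.2% and 63.6% of gut-like cells. With every cell thinned to 7500 UMIs these shares were 73.4%, 68.0%, 75.0% and 78.2% and 35.8%, 32.5%, 38.8% and 35.1%. The order of the classes was the same at equal depth.

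*Ptch1*, the receptor, was broad, and all 14 classes had it. The notochord-like cells were highest at 358 ± 37.5 CPM in WT, followed by the Mesenchyme 2-like cells at 273 ± 8.94 CPM, a class led by *Col3a1*, *Nkx2-3*, *Hlx*, *Acta2* and *Foxf1*. Both WT libraries of these classes lay above both of the next. Mesenchyme 1-like cells (led by *Prrx1*, *Hand2* and *Pitx1*, 178 CPM), neuroepithelium-like cells (170 CPM) and gut-like cells (169 CPM) came next, and the first 2 of these could not be ordered against the class below them. Paraxial mesoderm-like cells were at 148 CPM and the erythroid-like cells were lowest at 28.8 ± 5.83 CPM. A *Ptch1* UMI was seen in 100% of notochord-like cells of every library.

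*Hhip* was sparse and had a narrower range. The Mesenchyme 2-like cells led at 8.97 ± 1.53 CPM in WT and held 27.9% to 37.5% of a library's *Hhip* UMIs. Neuroepithelium-like cells were at 3.64 CPM, intermediate mesoderm-like cells at 3.03 CPM, surface ectoderm-like cells at 2.83 CPM and paraxial mesoderm-like cells at 2.50 CPM. In notochord-like cells, where *Ptch1* was highest, *Hhip* stood at only 2.01 CPM in WT.

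Of the GLI genes, *Gli1* followed *Ptch1*. It was highest in notochord-like cells (33.4 ± 5.77 CPM in WT), then in neuroepithelium-like (19.6 CPM), Mesenchyme 2-like (19.2 CPM) and paraxial mesoderm-like cells (18.3 CPM), where neighbours overlapped except for the notochord-like and paraxial mesoderm-like cells, which exceeded the class below. *Gli2* had another order, with neuroepithelium-like cells on top (20.4 ± 1.66 CPM), paraxial mesoderm-like cells next (16.5 CPM), and gut-like (2.00 CPM) and endothelium-like cells (1.72 CPM) near the bottom. *Gli3* was high in intermediate mesoderm-like cells (92.9 ± 7.82 CPM) and in Mesenchyme 1-like cells (82.7 CPM), which overlapped each other, and was at 69.9 CPM in the neuroepithelium-like cells and 6.72 CPM in erythroid-like cells. Over the 14 classes in WT, *Gli1* was the gene whose levels were most like those of *Ptch1* (Pearson's r = 0.895 on log2(CPM + 5), described over 14 classes that share 2 libraries), ahead of *Zcchc11* (r = 0.888), whereas *Shh* and *Ptch1* had r = 0.530.

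The neural transcription factors were concentrated in the neuroepithelium-like cells (537, 499, 619 and 673 cells, led by *Fam181b*, *Pax6*, *Nkx6-1*, *Sox1* and *Sox2*). *Nkx6-1* was at 47.9 ± 1.91 CPM in WT and 77.3 ± 4.98 CPM in *Grhl3*-null, and 63.0% to 72.1% of a library's *Nkx6-1* UMIs were there. *Nkx2-9* was at 10.1 ± 0.175 CPM and 9.67 ± 1.39 CPM, with 72.3% to 78.9% of its UMIs. *Olig2* was at 10.3 ± 0.613 CPM and 24.6 ± 0.460 CPM, with 70.0% to 81.5% of its UMIs. Outside this class *Nkx6-1* reached 5.93 CPM in notochord-like cells, *Olig2* 2.28 CPM in paraxial mesoderm-like cells and *Nkx2-9* 1.89 CPM in gut-like cells. An *Nkx2-9* UMI was found in 8.24%, 8.64%, 2.74% and 3.90% of gut-like cells and in 0 of 152, 155, 192 and 198 endothelium-like cells, which allows shares of cells with a UMI of up to 1.97%, 1.94%, 1.56% and 1.52% and sets no limit on the share of cells that express the gene.

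**Figure D1:**
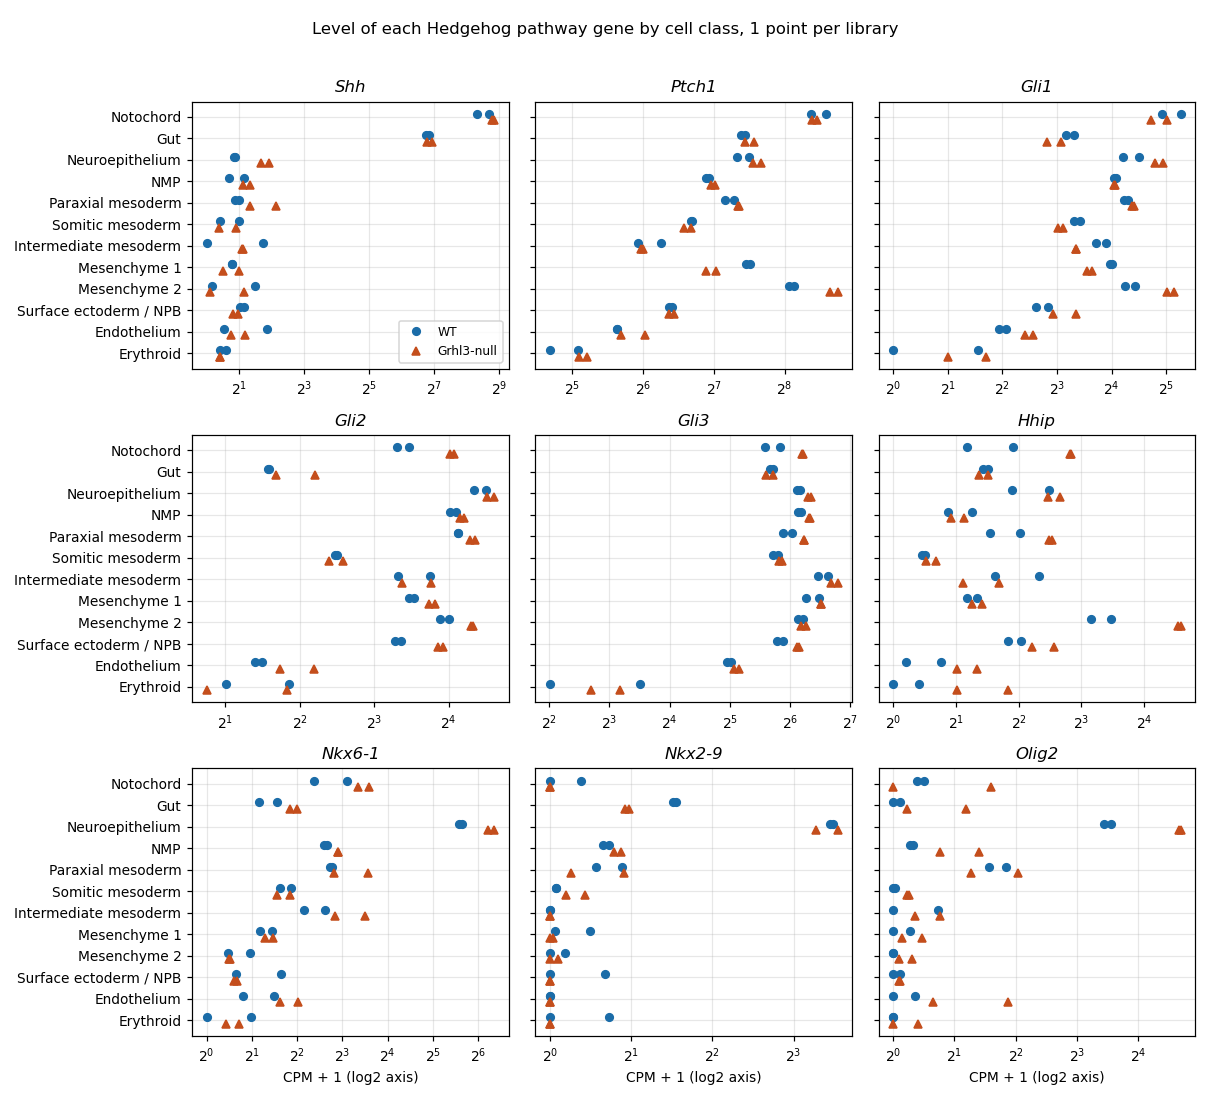
Level of each of the 9 members by cell class, as CPM + 1 on a log2 axis, each point a library (WT or *Grhl3*-null). *Shh* is confined to notochord-like and gut-like cells (364 and 110 CPM in WT, all others at 2.31 CPM or less), *Ptch1* is present in all classes, and *Nkx6-1*, *Nkx2-9* and *Olig2* peak in neuroepithelium-like cells.

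The genes whose levels over the 14 WT classes were most like those of a member were found in the same way, and the 5 closest are given. *Gli2* and *Gli3* were not ranked. *Shh* was closest to *Upk3a* (r = 0.996), *Gm26894*, *Gsn*, *Rnf32* and *Vtn* (0.961). *Gli1* was closest to *Ptch1* and then *Zfp24* (0.869), *Fam118a*, *Zcchc11* and *Haus6* (0.863), and *Ptch1*, after *Gli1* and *Zcchc11*, to *Elp2*, *Rnd3* and *Psrc1* (0.842). *Hhip* had the least close neighbours of the members ranked, *Masp1* (0.850), *Ncald*, *Steap1*, *Zfp442* and *Rspo1* (0.803). *Nkx6-1* was closest to *Gdf10* (0.962), *Fez1*, *Pou3f2*, *Nrcam* and *Fam181a*, *Nkx2-9* to *Pou3f2* (0.951), *Sox21*, *Fam181a*, *Fam181b* and *Nrcam* (0.935), and *Olig2* to *Fez1* (0.992), *Pou3f2*, *Nkx6-1*, *Fam181a* and *Fam181b* (0.933).

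Within the neuroepithelium-like class the members did not vary together in every cell. Cells were split by whether they held a UMI of a ventral factor, and the split cells of a library share its depth and free RNA, so these values are a description. Cells with an *Nkx2-9* UMI (73, 56, 68 and 84 cells) had *Ptch1* at 498, 504, 675 and 680 CPM, against 117, 114, 120 and 134 CPM in cells without. Their *Foxa2*, a floor plate and notochord factor, was at 55.7, 81.3, 102 and 99.5 CPM against 3.16, 2.45, 2.99 and 3.90 CPM. *Hhip* was at 18.5, 14.7, 25.8 and 18.99 CPM against 1.84, 1.09, 2.50 and 2.43 CPM. All 4 libraries had the same direction, and *Gli1* moved the same way with a smaller gap (33.5, 25.6, 40.1 and 50.0 CPM against 19.4, 16.4, 25.0 and 26.8 CPM). *Gli3* went the opposite way, at 55.2, 53.1, 49.3 and 44.9 CPM in cells with *Nkx2-9* and 71.3, 73.6, 84.8 and 82.3 CPM in cells without. The dorsal factor *Pax3* had the direction of *Gli3*, at 7.77, 3.10, 2.87 and 1.81 CPM against 74.0, 81.0, 145 and 144 CPM. *Gli2* was lower in cells with *Nkx2-9* in all 4 libraries, by least in WT replicate 1 (19.02, 18.98, 18.8 and 11.8 CPM against 19.3, 21.96, 24.1 and 23.2 CPM).

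*Olig2* and *Nkx6-1* cells were nested. An *Nkx6-1* UMI was found in 93.1%, 96.7%, 95.1% and 97.8% of cells with an *Olig2* UMI, and in 37.4%, 35.8%, 39.1% and 40.8% of the rest. Conversely *Olig2* was at 21.1, 20.8, 46.1 and 45.3 CPM in cells with *Nkx6-1* and 1.02, 0.259, 1.62 and 0.404 CPM in cells without. *Ptch1* in cells with *Olig2* was at 373, 289, 369 and 433 CPM against 147, 142, 141 and 147 CPM, and in cells with *Nkx6-1* at 269, 232, 289 and 316 CPM against 94.6, 97.2, 76.3 and 73.6 CPM. The *Ptch1* level of the positive cells was thus highest for *Nkx2-9*, lower for *Olig2* and lowest for *Nkx6-1* in each library. Cells with *Nkx2-9* were deeper in WT (median UMIs 43490 and 41281.5 against 33704 and 35226) and about level in *Grhl3*-null (36702.5 and 34904 against 35344 and 34061). Cells with *Nkx6-1* were somewhat deeper in WT (median UMIs 38511 and 37617 against 32355.5 and 34512.5) and not in *Grhl3*-null (35585 and 33358.5 against 35429.5 and 34749). In the gut-like cells, where the ligand is made, *Ptch1* did not rise with *Shh*, at 164, 161, 170 and 186 CPM in cells with a *Shh* UMI and 189, 173, 177 and 194 CPM in cells without. Another Hedgehog ligand gene, *Ihh*, was at 51.7, 53.5, 56.7 and 59.7 CPM in the class. The split by *Shh* therefore does not part cells that make a Hedgehog ligand from cells that do not.

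**Figure D2:**
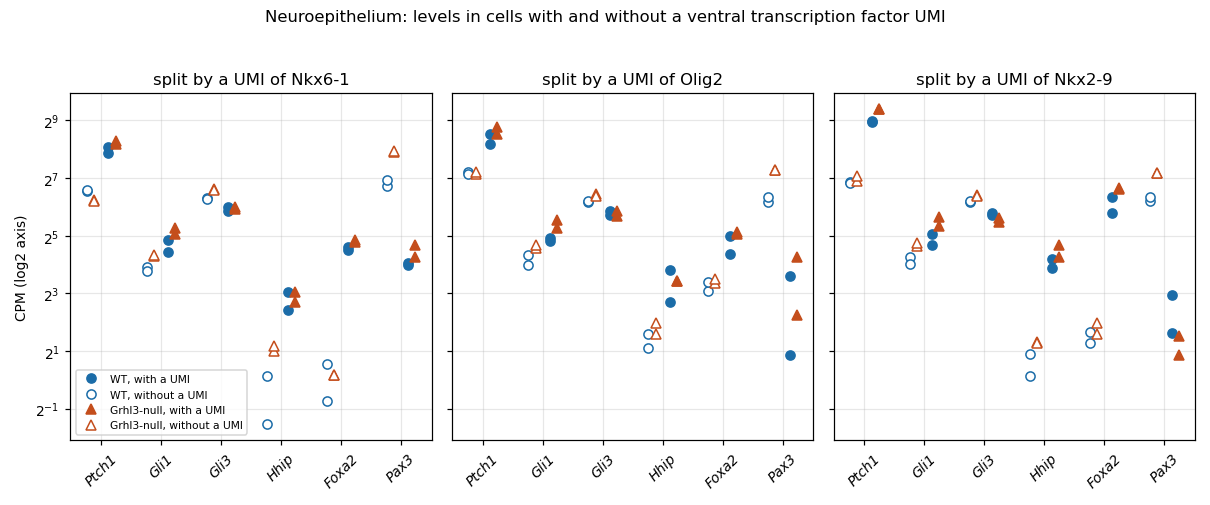
Level of *Ptch1*, *Gli1*, *Gli3*, *Hhip*, *Foxa2* and *Pax3* (CPM, log2 axis) in neuroepithelium-like cells with and without a UMI of *Nkx6-1*, *Olig2* or *Nkx2-9*, each point a library. *Ptch1*, *Hhip* and *Foxa2* are higher and *Gli3* and *Pax3* lower in the positive cells of all 4 libraries.

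Between the genotypes, UMIs were summed per class and library and tested with edgeR's quasi-likelihood test, with p-values adjusted over all genes of the class by Benjamini-Hochberg and a call at an adjusted p under 0.05. A change of a sum does not say whether more cells held the gene or each cell held more. Over all cells 8 of the 9 members were called, all higher in *Grhl3*-null, where 35.5% of all tested genes were called. These sums mix classes whose shares of a library differed between the genotypes. Gut-like cells were 5.11%, 4.75%, 8.30% and 8.05% of the cells and neuroepithelium-like cells 9.84%, 9.75%, 12.8% and 14.1%. Pre-somitic mesoderm-like cells were 8.92%, 9.05%, 0.062% and 0.084%. The part of these shares in the all-cell differences was not tested. *Olig2* had the largest difference, with 1.40, 1.39, 3.499 and 3.98 CPM and a log2 fold change of 1.39 ± 0.08 (SE, adjusted p = 3.3e-05). *Hhip* (2.26, 1.93, 3.73 and 3.86 CPM, 0.83 ± 0.08) and *Nkx6-1* (7.23, 7.71, 11.7 and 14.1 CPM, 0.76 ± 0.08) followed, and *Gli2*, *Shh*, *Gli1*, *Gli3* and *Ptch1* rose by 0.32 to 0.12 on the log2 scale. *Nkx2-9* had 1.42, 1.33, 1.26 and 1.73 CPM and was not called (adjusted p = 0.66). Within female cells the all-cell direction turned for *Olig2* (-1.55), *Nkx6-1* (-0.91), *Gli1* (-0.24) and *Ptch1* (-0.060). The *Ptch1* difference was small (0.12 ± 0.03) and lost its call without WT replicate 2 (0.11, adjusted p = 0.078) or *Grhl3*-null replicate 2 (0.08, adjusted p = 0.059), while *Nkx2-9* gained one without *Grhl3*-null replicate 1 (0.30, adjusted p = 0.044).

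Split by class, 80 combinations of a member and a class could be tested in 12 classes. Of these, 23 were called in 9 classes, 19 of them higher and 4 lower in *Grhl3*-null. Over all tested genes the share called ran from 0.443% in erythroid-like to 24.0% in neuroepithelium-like cells. The calls over all genes were 1462 higher and 1682 lower in neuroepithelium-like cells, and 1267 and 1230 in Mesenchyme 2-like cells. In 3 classes edgeR called 0 members. In the endothelium-like cells 5 were tested and 0.795% of all genes were called, in the erythroid-like cells 2 and 0.443%, and in the intermediate mesoderm-like cells 5 and 2.53%. At an unadjusted p under 0.05 these classes had 2, 0 and 3 members, and DESeq2 called 0 in each. Leaving out *Grhl3*-null replicate 1 gave a call for *Ptch1* in endothelium-like cells (0.39, adjusted p = 0.010), and leaving out *Grhl3*-null replicate 2 a call for *Nkx6-1* in intermediate mesoderm-like cells (1.30, adjusted p = 0.013).

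The neuroepithelium-like cells had the most calls, 6 of 9 members, all higher in *Grhl3*-null, against 24.0% of all tested genes. *Olig2* was at 10.7, 9.86, 24.9 and 24.2 CPM, with no overlap between genotypes and a log2 fold change of 1.23 ± 0.08 (adjusted p = 1.1e-09). *Nkx6-1* was at 46.5, 49.2, 73.8 and 80.8 CPM (0.67 ± 0.05, adjusted p = 9.2e-09). The third ventral factor, *Nkx2-9*, was at 10.2, 9.95, 8.69 and 10.6 CPM and its genotypes overlapped (-0.09 ± 0.11, adjusted p = 0.62). *Gli1* was at 21.7, 17.5, 26.8 and 29.7 CPM (0.50 ± 0.08, adjusted p = 0.00018). *Ptch1* (179, 160, 188 and 202 CPM, 0.17 ± 0.05, adjusted p = 0.015) and *Gli3* (68.6, 71.2, 80.5 and 77.6 CPM, 0.15 ± 0.04, adjusted p = 0.013) were higher by little. *Gli2* (19.3, 21.6, 23.5 and 21.8 CPM) and *Hhip* (4.57, 2.71, 5.33 and 4.51 CPM) were not called, at adjusted p = 0.23 and 0.15. Without WT replicate 2 the *Ptch1* call was lost (0.09, adjusted p = 0.27), and without WT replicate 1 or *Grhl3*-null replicate 1 the *Gli3* call was (0.13 and 0.12). *Hhip* was called without WT replicate 1 (0.84, adjusted p = 0.0062) and without *Grhl3*-null replicate 2 (0.52, adjusted p = 0.021).

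The share of neuroepithelium-like cells with an *Olig2* UMI was 13.4% (95% Clopper-Pearson interval 10.6% to 16.6%) and 12.02% (9.30% to 15.2%) in WT, and 19.9% (16.8% to 23.2%) and 20.7% (17.7% to 23.9%) in *Grhl3*-null. These intervals cover counting error only. At 7500 UMIs per cell the shares were 6.33%, 7.41%, 11.3% and 12.2%, and the endothelium-like cells, which should lack the gene, had 0%, 1.29%, 2.08% and 1.52% unthinned. *Nkx6-1* was seen in 44.9%, 43.1%, 50.2% and 52.6% of cells, or 20.5%, 22.04%, 31.3% and 32.1% when thinned. *Nkx2-9* had 13.6%, 11.2%, 10.99% and 12.5%. *Shh* was also called in this class (0.835, 0.780, 2.20 and 2.77 CPM, 1.59 ± 0.26, adjusted p = 0.00018), yet on 19, 17, 57 and 73 UMIs in 12, 7, 24 and 23 cells. Its share of cells with a UMI was 2.23%, 1.40%, 3.88% and 3.42%, against 1.97%, 1.29%, 1.04% and 4.04% of the endothelium-like cells, at median depths of 34255 to 36076 against 35643 to 39227.5 UMIs. The neuroepithelium-like share was near that of the endothelium-like cells in both WT libraries, above it in *Grhl3*-null replicate 1 and below it in *Grhl3*-null replicate 2.

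The sex and the axial level of the neuroepithelium-like cells differed sharply between the pools. Male cells were 12.1% and 15.4% of the sexed cells in WT and 82.6% and 84.9% in *Grhl3*-null. The posterior *Hox* sum was 187 and 198 CPM in WT and 1.54 and 0.909 CPM in *Grhl3*-null, and *T*, a gene of the caudal end and notochord, fell from 56.9 to 16.7 CPM. The labels do not say how many embryos of each sex were pooled, so sex here stands for a subset of the embryos. The genotype effect was therefore also fitted within male cells (62, 72, 419 and 472 cells) and within female cells (451, 395, 88 and 84 cells).

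Within male neuroepithelium-like cells 2 members were called, against 19% of all genes. *Olig2* was at 10.3, 5.68, 29.9 and 28.4 CPM (1.97 ± 0.18, adjusted p = 3.6e-08) and *Nkx6-1* at 75.4, 77.1, 84.2 and 95.1 CPM (0.28 ± 0.08, adjusted p = 0.011). *Ptch1* was at 250, 233, 203 and 232 CPM (-0.10 ± 0.06) and *Gli1* at 29.3, 26.2, 29.6 and 32.0 CPM (0.21 ± 0.11), and neither was called. Within female cells 5 members were called, against 28.1% of all genes, and the ventral factors ran the other way. *Olig2* was at 11.1, 11.1, 0.779 and 3.19 CPM, lower in *Grhl3*-null by 2.53 ± 0.32 on the log2 scale (adjusted p = 7.5e-06). The *Grhl3*-null values come from 88 and 84 female cells and so rest on few UMIs. *Nkx2-9* was at 9.09, 11.7, 3.89 and 2.40 CPM (-1.75 ± 0.28, adjusted p = 0.00012) and *Ptch1* at 161, 141, 130 and 136 CPM (-0.23 ± 0.07, adjusted p = 0.017). *Nkx6-1* overlapped, at 37.9, 42.4, 35.3 and 41.3 CPM (-0.11 ± 0.10). *Gli2* (18.6, 18.9, 26.2 and 25.6 CPM, 0.42 ± 0.12) and *Gli3* (0.20 ± 0.07) were higher.

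The test of the difference between the sexes called 4 members in this class, against 29.4% of all genes. The genotype effect in male minus that in female cells was 4.48 ± 0.37 for *Olig2* (adjusted p = 2.9e-10), 2.08 ± 0.38 for *Nkx2-9* (adjusted p = 0.00010), 0.40 ± 0.12 for *Nkx6-1* (adjusted p = 0.014) and -0.58 ± 0.18 for *Gli2* (adjusted p = 0.018), all on the log2 scale. That of *Ptch1* was 0.12 ± 0.08 (adjusted p = 0.27). In WT alone, male cells had *Nkx6-1* at 75.4 and 77.1 CPM against 37.9 and 42.4 CPM in female cells, and *Ptch1* at 250 and 233 against 161 and 141 CPM.

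Axial level moved with the same genes. Cells without a posterior *Hox* UMI (284, 254, 597 and 661 cells) had *Nkx6-1* at 69.9, 77.7, 75.7 and 80.3 CPM, *Gli1* at 25.8, 23.0, 27.3 and 29.9 CPM, *Ptch1* at 201, 177, 190 and 203 CPM and *Olig2* at 18.3, 16.9, 25.1 and 23.8 CPM. In those cells 1 member was called, against 5.88% of all genes. It was *Olig2* (0.46, adjusted p = 0.0013), while *Nkx6-1* (0.06, adjusted p = 0.56), *Gli1* (0.21, adjusted p = 0.12) and *Ptch1* (0.04, adjusted p = 0.76) were not. WT cells with a posterior *Hox* UMI (253 and 245 cells) had *Nkx6-1* at 20.8 and 18.8 CPM and *Olig2* at 2.40 and 2.37 CPM. Only 22 and 12 such cells were in *Grhl3*-null. Sex and axial level are tied to genotype in this class, and the part of each in the differences was not tested.

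**Figure D3:**
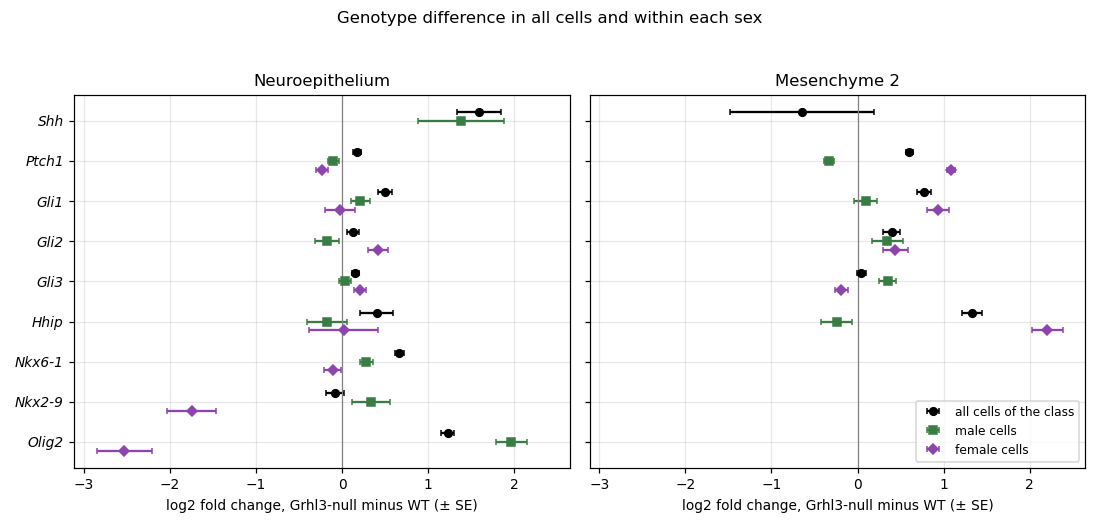
Genotype effect (log2 fold change, *Grhl3*-null minus WT, points with SE bars) for each member in neuroepithelium-like and Mesenchyme 2-like cells, over all cells, male cells and female cells. *Olig2* is at 1.23 over all, 1.97 in male and -2.53 in female neuroepithelium-like cells, and *Ptch1* and *Hhip* of the Mesenchyme 2-like cells are at or below 0 in male cells (-0.33 and -0.24) and above 0 in female cells (1.08 and 2.21).

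In the Mesenchyme 2-like cells (412, 424, 347 and 370 cells) the pathway readouts were called together. Of 6 members tested 4 were called, all higher in *Grhl3*-null, against 20.3% of all genes. *Ptch1* was at 266, 279, 399 and 429 CPM (0.60 ± 0.04, adjusted p = 3.2e-08), *Hhip* at 10.0, 7.89, 23.0 and 22.1 CPM (1.33 ± 0.11, adjusted p = 4.5e-07) and *Gli1* at 17.9, 20.5, 31.2 and 34.5 CPM (0.77 ± 0.08, adjusted p = 6.2e-06). *Gli2* was at 15.0, 13.7, 19.02 and 18.8 CPM (0.40 ± 0.10, adjusted p = 0.0077). *Gli3* was not called (0.04 ± 0.05, adjusted p = 0.60), nor was *Shh*, which was called without WT replicate 2 (-1.54) or *Grhl3*-null replicate 1 (-3.58). The genotypes did not overlap in any of the 4 called genes, which follows closely from the calls and is no separate support. A *Hhip* UMI was found in 19.2%, 16.5%, 38.0% and 37.3% of these cells, and in 6.55%, 5.66%, 14.7% and 15.1% when thinned.

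The same readouts differed between the sexes and the axial levels of these cells. Male cells were 13.3% and 14.9% of sexed cells in WT and 74.8% and 72.9% in *Grhl3*-null, and the posterior *Hox* sum was 297 and 269 CPM against 19.7 and 21.5 CPM. In male cells (52, 60, 244 and 250) *Ptch1* was at 500, 490, 380 and 408 CPM, lower in *Grhl3*-null by 0.33 ± 0.06 on the log2 scale (adjusted p = 0.00078), and *Hhip* at 28.5, 19.2, 22.02 and 18.7 CPM (-0.24 ± 0.18). In those cells 2 members were called, against 11.6% of all genes, the other being *Gli3* (0.35 ± 0.10, adjusted p = 0.022). In female cells (339, 344, 82 and 93) 4 members were called, against 22.4% of all genes. *Ptch1* was at 212, 229, 451 and 470 CPM (1.08 ± 0.05, adjusted p = 7.8e-13), *Hhip* at 6.21, 5.55, 22.4 and 30.5 CPM (2.21 ± 0.18, adjusted p = 7.9e-09) and *Gli1* at 15.9, 18.9, 29.98 and 35.5 CPM (0.94 ± 0.13, adjusted p = 1.8e-05).

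The effects differed between the sexes for 4 members, against 24.5% of all genes. Male minus female effects were -1.42 ± 0.07 for *Ptch1* (adjusted p = 2.0e-77), -2.44 ± 0.24 for *Hhip* (adjusted p = 8.5e-21), -0.84 ± 0.20 for *Gli1* (adjusted p = 0.00022) and 0.54 ± 0.13 for *Gli3* (adjusted p = 0.00059). These p-values measure only the spread between reactions of the same pools. They hold no variation between embryos, and the cells of a sex come from an unknown number of embryos. For *Ptch1*, *Hhip* and *Gli1* the female effect was the higher, and for *Gli3* the male effect, as for *Olig2* in the neuroepithelium-like cells. Cells without a posterior *Hox* UMI (151, 144, 294 and 321) had *Ptch1* at 302, 315, 395 and 414 CPM and *Hhip* at 18.7, 14.1, 22 and 22.1 CPM. Among them 2 members were called, against 2.36% of all genes, *Ptch1* (0.40, adjusted p = 5.1e-05) and *Gli1* (0.46, adjusted p = 0.034), and *Hhip* was not (0.42, adjusted p = 0.14). WT cells with such a UMI had *Hhip* at 5.36 and 5.03 CPM. With finer clustering (resolution 0.8) the class was drawn differently, its *Hhip* level in WT was 23.0 CPM, and *Ptch1* (0.13, adjusted p = 0.65) and *Gli1* (0.37, adjusted p = 0.64) were not called.

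**Figure D4:**
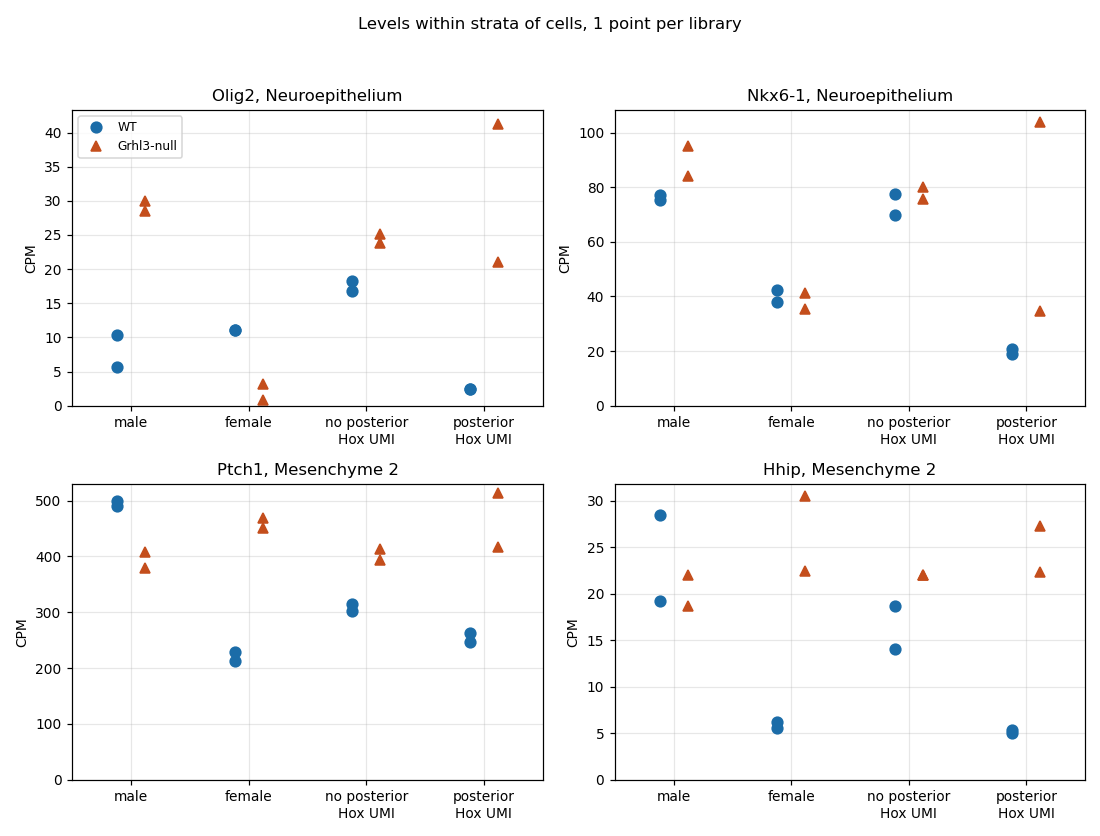
Level (CPM, linear axis from 0) of *Olig2* and *Nkx6-1* in neuroepithelium-like cells and of *Ptch1* and *Hhip* in Mesenchyme 2-like cells, split into male cells, female cells, cells without and cells with a posterior *Hox* UMI, each point a library. *Olig2* of the female cells is at 11.1 CPM in both WT libraries and at 0.779 and 3.19 CPM in *Grhl3*-null, and *Ptch1* of the male Mesenchyme 2-like cells is at 500 and 490 CPM in WT and 380 and 408 CPM in *Grhl3*-null.

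The Mesenchyme 1-like cells (547, 465, 829 and 770 cells) had *Ptch1* in the other direction. It was at 174, 182, 118 and 130 CPM, lower in *Grhl3*-null by 0.51 ± 0.05 on the log2 scale (adjusted p = 4.1e-06), and *Gli1* was at 14.7, 15.0, 11.4 and 10.7 CPM (-0.41 ± 0.08, adjusted p = 0.0040). *Gli2* was higher (10.6, 10.1, 13.1 and 12.4 CPM, 0.31 ± 0.08, adjusted p = 0.034), so that 3 of 7 members were called against 6.77% of all genes. Male shares were 50%, 52%, 37.2% and 39.2%, and the posterior *Hox* sums were closer than in the Mesenchyme 2-like cells, with 87.5 and 86.4 CPM of posterior *Hox* in *Grhl3*-null against 119 and 136 CPM in WT. *Ptch1* was lower in male cells (194, 204, 126 and 155 CPM), in female cells (158, 148, 108 and 112 CPM), in cells without a posterior *Hox* UMI (206, 200, 104 and 131 CPM) and in cells with one (149, 171, 131 and 128 CPM). The class joins 2 clusters, of which the smaller, led by *Tbx4* and *Capn6*, had 65 and 42 cells in WT and 159 and 139 in *Grhl3*-null. The *Gli2* call was lost without any of the libraries except *Grhl3*-null replicate 2 (0.27 to 0.35), and *Gli3* was called without WT replicate 2 (0.26).

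Among the notochord-like cells, the ligand source, 1 of 7 members was called, against 3.53% of all genes. It was *Gli3*, at 46.8, 56.0, 73.5 and 73.0 CPM (0.49 ± 0.13, adjusted p = 0.028). It lost the call without WT replicate 1 (0.38), *Grhl3*-null replicate 1 (0.47) or *Grhl3*-null replicate 2 (0.51). In female notochord-like cells *Gli3* was at 45.1, 56.2, 46.7 and 53.2 CPM. *Shh* was at 411, 317, 436 and 460 CPM (0.31 ± 0.09, adjusted p = 0.073) and was called without WT replicate 1 (0.49, adjusted p = 0.0018). By sex it was at 490, 432, 593 and 734 CPM in male cells and 419, 330, 348 and 365 CPM in female cells, on 16 to 47 cells per library. *Ptch1* was at 385, 332, 350 and 333 CPM (-0.07 ± 0.09, adjusted p = 0.77) and *Hhip* at 1.26, 2.75, 6.08 and 6.16 CPM (1.51 ± 0.51, adjusted p = 0.11). Male shares were 32.8%, 27.7%, 45.7% and 52.3% and posterior *Hox* sums 44.3, 37.6, 1.52 and 3.96 CPM. *Foxf1* (3.24 to 11.3 CPM, 1.90 ± 0.44), *Foxc2* (12.4 to 35.7 CPM, 1.44 ± 0.31) and *Pax3* (4.51 to 13.9 CPM, 1.51 ± 0.42), named after their values were seen, were also higher in these cells in *Grhl3*-null. In the lists that hold them, 1 of 3 gut mesenchyme, 2 of 4 sclerotome and 1 of 5 dorsal neural genes tested were called higher. *Mfap4* of the sclerotome list was called lower (45.1 to 20.7 CPM, -1.12 ± 0.17). The part of these genes, of sex and of axial level in the *Gli3* difference was not tested.

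The gut-like cells (279, 243, 402 and 385 cells, male shares 35.0%, 29.0%, 61.6% and 64.1%, posterior *Hox* sums 173, 228, 39.4 and 37.9 CPM) also had 1 call, of 8 members tested, against 20% of all genes. *Nkx2-9* was at 1.85, 1.93, 0.899 and 0.969 CPM (-1.05 ± 0.32, adjusted p = 0.024), a call that was lost when any library was left out (-1.09 to -0.99). In female cells it was at 1.72, 2.38, 1.66 and 1.52 CPM and in male cells at 2.26, 1.27, 0.417 and 0.654 CPM. The part of sex and axial level in this call was not tested. The ligand was not called, with *Shh* at 114, 106, 120 and 109 CPM (0.02 ± 0.06, adjusted p = 0.85). In cells with a posterior *Hox* UMI *Shh* was at 111, 110, 159 and 141 CPM, and in cells without at 125, 89.9, 90.1 and 84.3 CPM. *Nkx6-1* was at 1.23, 1.93, 2.98 and 2.57 CPM (0.79 ± 0.28, adjusted p = 0.050) and was called without WT replicate 2 (1.13). In *Grhl3*-null replicate 1, 31 *Nkx6-1* UMIs came from 4 of 8 cells with an *Olig2* UMI (median 81682.5 UMIs per cell). The 394 cells without one (median 37453) had *Nkx6-1* at 1.28 CPM. In *Grhl3*-null replicate 2 the cells without *Olig2* had it at 2.31 CPM. The difference between the notochord-like and gut-like effects was called for 1 member, *Gli3* (0.55 ± 0.14, adjusted p = 0.040), against 1.51% of all genes, and not for *Shh* (0.28 ± 0.09, adjusted p = 0.17). Without *Grhl3*-null replicate 1 or 2 it was called for 0 members.

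In the paraxial mesoderm-like cells, whose male shares were 14.8%, 18.2%, 82.4% and 83.2% and whose posterior *Hox* sums were 14.7, 10.7, 2.64 and 2.80 CPM, 3 of 9 members were called, against 21.1% of all genes. *Gli3* was at 58.1, 64.7, 74.0 and 74.5 CPM (0.25 ± 0.05, adjusted p = 0.0010) and *Hhip* at 3.06, 1.93, 4.76 and 4.596 CPM (0.87 ± 0.17, adjusted p = 0.0019). *Hhip* stood at 1.74, 1.05, 6.53 and 6.67 CPM in male cells and at 3.39, 2.33, 2.49 and 2.07 CPM in female cells. *Shh* was called (0.998, 0.816, 3.37 and 1.53 CPM, 1.41 ± 0.34, adjusted p = 0.0070) on 29, 22, 134 and 57 UMIs, of which 39 and 31 came from a single cell in each *Grhl3*-null library, and not without *Grhl3*-null replicate 1 (0.72, adjusted p = 0.12). *Nkx6-1* was at 5.61, 5.83, 5.99 and 10.8 CPM and was called without *Grhl3*-null replicate 1 (0.89), WT replicate 1 (0.49) or WT replicate 2 (0.54). *Nkx2-9* (-1.72) and *Olig2* (-0.71) were called without *Grhl3*-null replicate 2, and *Ptch1* (0.17) without WT replicate 1.

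The genotype effect was compared between the neuroepithelium-like and the paraxial mesoderm-like cells, which had alike sex shares. Their posterior *Hox* sums were unlike, at 187 and 198 CPM in WT and 1.54 and 0.909 CPM in *Grhl3*-null for the former and 14.7, 10.7, 2.64 and 2.80 CPM for the latter, and the part of axial level was not tested. The effect differed for 2 members, against 12.6% of all genes. The effect on *Olig2* was larger in the neuroepithelium-like cells by 1.28 ± 0.30 (adjusted p = 0.0074) and that on *Gli1* by 0.40 ± 0.09 (adjusted p = 0.0060), both on the log2 scale. The count was 4 without *Grhl3*-null replicate 2 and 1 without WT replicate 2.

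The other classes had 5 calls in all. In the neuromesodermal progenitor-like cells 2 of 9 members were called, against 18.5% of all genes. These were *Gli3* (69.4, 71.9, 79.6 and 78.5 CPM, 0.14 ± 0.04, adjusted p = 0.014), lost without WT replicate 1 (0.12), and *Olig2* (0.211, 0.247, 0.706 and 1.63 CPM, 2.28 ± 0.45, adjusted p = 0.0047), which rested on 8, 9, 25 and 49 UMIs in 4, 4, 5 and 9 cells. Surface ectoderm-like cells had 2 of 6, against 14.5%, with *Gli2* at 8.66, 9.26, 14.1 and 13.5 CPM (0.59 ± 0.13) and *Gli3* at 53.9, 58.1, 68.2 and 69.9 CPM (0.26 ± 0.06), the latter lost without WT replicate 1 (0.20), and *Gli1* was called there without *Grhl3*-null replicate 2 (0.67). Somitic mesoderm-like cells had 1 of 7, against 17.6%, with *Gli1* at 8.96, 9.67, 7.11 and 7.63 CPM (-0.35 ± 0.10, adjusted p = 0.020), lost without WT replicate 2 or *Grhl3*-null replicate 1 (-0.29 and -0.30). Male shares were 36.1%, 33.2%, 39.6% and 42.5% in the neuromesodermal progenitor-like, 22.9%, 27.4%, 58.2% and 51.4% in the surface ectoderm-like and 38.1%, 38.3%, 38.3% and 41.6% in the somitic mesoderm-like cells. Posterior *Hox* sums were 19.5, 20.1, 3.22 and 3.33 CPM, then 72.7, 58.04, 28.6 and 27.2 CPM, then 25.6, 24.4, 15.7 and 13.9 CPM, and the part of either in these calls was not tested. Pre-somitic mesoderm-like cells (487, 463, 3 and 4) and primordial germ cell-like cells (14, 5, 14 and 26) were too few in a genotype to be tested.

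**Figure D5:**
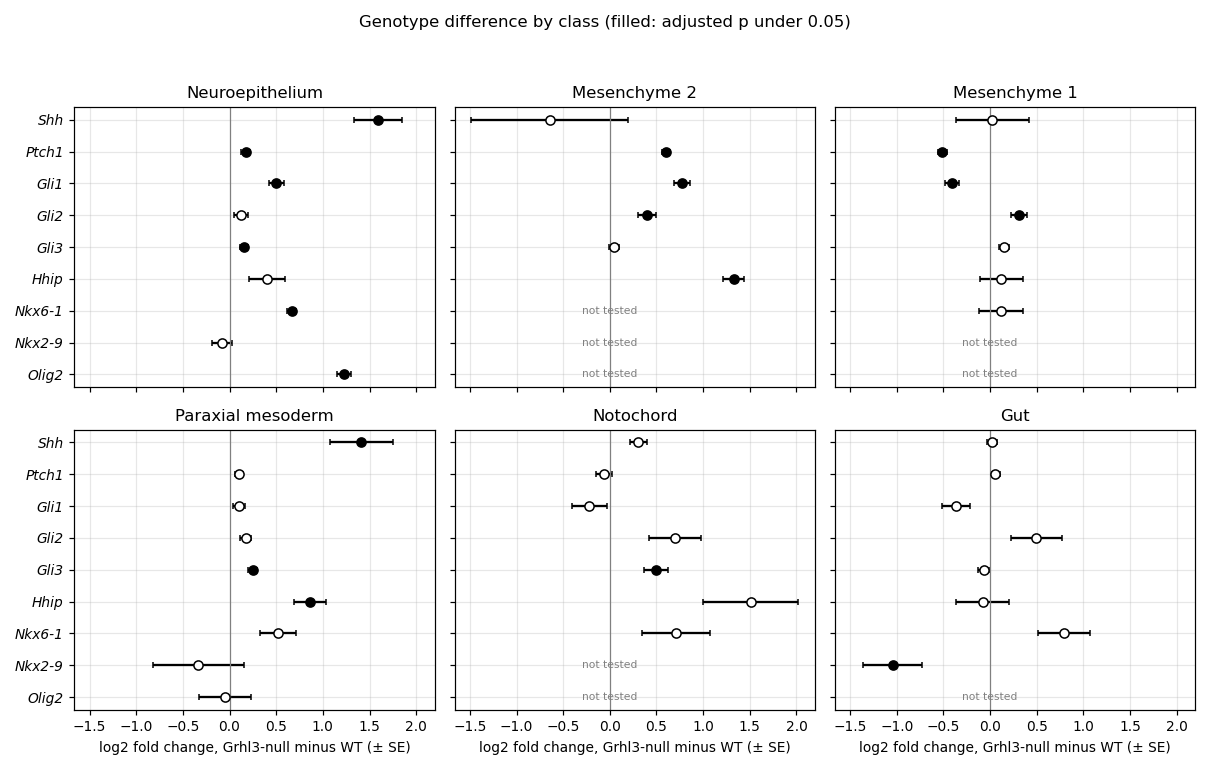
Log2 fold change (*Grhl3*-null minus WT, with SE bars) of the members in 6 cell classes, filled where the adjusted p was under 0.05. *Ptch1* is higher in Mesenchyme 2-like cells (0.60) and lower in Mesenchyme 1-like cells (-0.51), and *Olig2* and *Nkx6-1* are higher in neuroepithelium-like cells (1.23 and 0.67).

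The pathway around the members was read from gene lists, described by counts and medians, with the median log2 fold change of all genes close to 0. In the neuroepithelium-like cells 8 of 10 genes of a list of ventral progenitors and the floor plate were higher and none lower (median log2 fold change 0.74). That list is mixed, since it also holds *Pax6*, *Irx3*, *Dbx1* and *Dbx2*, which are not confined to ventral progenitors. Beside the members the higher genes included *Pax6*, a factor of intermediate and ventral progenitors (58.3 to 120 CPM, 1.02 ± 0.05), and *Foxa2* (11.8 to 15.4 CPM, 0.36 ± 0.08). The dorsal list moved the same way, with 6 of 8 higher and none lower (median 0.97). *Pax3* went from 67.4 to 127 CPM (0.89 ± 0.05), *Msx2* from 5.19 to 11.04 CPM (1.06 ± 0.12), *Msx1* from 90.9 to 158 CPM (0.77 ± 0.06) and *Zic1*, a dorsal zinc finger factor, from 2.03 to 13.0 CPM (2.66 ± 0.15). Genes of both sides were thus higher, and the log2 fold change of dorsal *Zic1* was larger than that of *Olig2*. The sex shares and the posterior *Hox* sums given above moved with these lists too, and their part was not tested.

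Of the co-receptors and inhibitors in the neuroepithelium-like cells, 4 of 8 were higher and 1 lower (median 0.29). The co-receptors *Gas1* (77.7 to 118 CPM, 0.57 ± 0.04), *Cdon* (8.38 to 13.2 CPM) and *Boc* (11.1 to 17.2 CPM, 0.61 ± 0.09) rose, and the endocytic receptor *Lrp2*, named after its value was seen, fell (38.2 to 34.9 CPM, -0.16 ± 0.05). Among the ligand and release genes 4 of 6 were higher, among them the release factors *Scube2* (11.6 to 19.5 CPM, 0.73 ± 0.09) and *Scube3* (8.56 to 10.9 CPM, 0.33 ± 0.10). Transducers had 2 of 13 higher, both of them members, and primary cilium genes 1 of 10, the retrograde motor subunit *Dync2h1* (0.19 ± 0.05).

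In the Mesenchyme 2-like cells 5 of 8 receptor genes were higher and none lower (median 0.56), including *Cdon* (7.03 to 10.7 CPM) and *Lrp2* (8.76 to 19.7 CPM, 1.17 ± 0.11), and 0 of 10 cilium genes were called. Genes of the gut mesenchyme that respond to Hedgehog were split, 2 higher and 2 lower of 6. *Foxf1* was higher (245 to 299 CPM, 0.29 ± 0.05), and *Nkx2-3* (44.8 to 27.2 CPM, -0.71 ± 0.10) and *Bmp4* (36.3 to 29.6 CPM) were lower. In the Mesenchyme 1-like cells *Foxf1* was lower, from 211 to 174 CPM (-0.27 ± 0.05), as was *Osr1* (68.8 to 58.2 CPM, -0.23 ± 0.05), and the list had 0 higher and 3 lower of 5, the same direction as *Ptch1* there. The co-receptor *Gas1* was higher there (49.1 to 81.3 CPM, 0.74 ± 0.05).

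In the paraxial mesoderm-like cells the sclerotome list, genes of the ventral somite, had 3 higher and 2 lower of 6. *Pax1*, a sclerotome factor that depends on Hedgehog, rose from 8.61 to 21.9 CPM (1.31 ± 0.08) and *Sox9* from 18.6 to 26.3 CPM (0.48 ± 0.06), while the matrix gene *Mfap4* fell from 22.2 to 11.95 CPM (-0.92 ± 0.07). In the notochord-like cells, where *Foxf1*, *Foxc2* and *Pax3* were higher as given above, the co-receptor *Gas1* rose from 21.3 to 43.3 CPM (0.98), and *Noto*, a notochord factor, fell from 134 to 97.9 CPM (-0.45, adjusted p = 0.013). *Gas1* was followed across classes after its values were seen, and it was higher in 6 of the 12 classes and lower in 1, the paraxial mesoderm-like cells (137 to 129 CPM, -0.11 ± 0.04).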

How the data were processed

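Dissociated caudal tissue of E8.5 embryos was run as 4 droplet libraries (10x, 3′). Per the study's methods the authors aligned reads to mm10 and counted UMIs per gene and barcode with Cell Ranger 3.0.0. The authors deposited raw UMI counts, which need no conversion, for 24239 barcodes, summing to 217559026 to 232903564 UMIs per library. From these, barcodes with 3000 genes or more, 7500 UMIs or more and no more than 7% of UMIs from mitochondrial genes were kept (20198 cells). Expression was normalised for clustering only with SCTransform (Seurat 5.3.0, sctransform 0.4.2, R 4.3.3), with 3000 variable genes, 30 principal components, 20 neighbours and Louvain resolution 0.4. A cluster was named where at least 3 of the study's markers for a type were among its 30 leading genes and exceeded the next type by over 1.5 times. The doublet caller Scrublet marked at most 0.0627% of a library's cells by its own threshold, so it did not work here, and removing the 5% highest scores was used as an alternative. Pairs of libraries shared 7 to 16 barcodes.

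UMIs were summed per class and library where each library had at least 20 cells, and the genotypes were compared with edgeR 4.0.16 (filterByExpr, TMM, quasi-likelihood F-test, Benjamini-Hochberg adjustment over all genes of the class, threshold 0.05). The SE was the fold change divided by the square root of F. DESeq2 1.42.0 served as an alternative. Levels are CPM, UMIs of a gene per 1000000 UMIs of the class in that library. Shares of cells carry Clopper-Pearson 95% intervals, and a count of 0 allows up to 3 cells. Male cells held 2 or more UMIs from 4 Y-linked genes and no more than 2 *Xist* UMIs, while female cells held 3 or more *Xist* UMIs and no more than 1 from the Y. Any of the 9 members could be named in any class. From each list of pathway genes, 2 to 4 called genes with the largest fold change and at least 10 CPM in a genotype are named, and for a member's pattern the 5 genes with the highest r. Members, lists and tests were chosen with earlier results of these data known, and the comparisons between sexes and without posterior *Hox* UMIs were completed after seeing them.

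Libraries of a genotype are reactions of the same pool. They differed by more than counting noise (chi-square per degree of freedom 8.196 in WT and 14.365 in *Grhl3*-null), so each was counted as a sample, and p-values measure only the spread between these reactions. The tests were checked on simulated data with known changes. Of 200 genes planted at a log2 fold change of 1, 182 were recovered in neuroepithelium-like and 141 in notochord-like cells. For the difference between neuroepithelium-like and paraxial mesoderm-like effects 129 of 200 were recovered. At a log2 fold change of 2 the counts were 191, 192 and 184. A missing call therefore does not show that a gene was unchanged. RefSeq promoter windows were searched with numpy 2.4.6, scipy 1.17.1 and pandas 2.3.3, and plots were drawn with matplotlib 3.10.9.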

Additional observations from a re-analysis of the deposited data

Results flagged for a closer look

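Results are listed here because the genotype effect differed between classes or between the sexes by a test of the difference itself (edgeR's quasi-likelihood test, adjusted over all genes). Between neuroepithelium-like and paraxial mesoderm-like cells the effect differed by 1.28 for *Olig2* and 0.40 for *Gli1* on the log2 scale, higher in the neuroepithelium-like cells. Between notochord-like and gut-like cells it differed by 0.55 for *Gli3*. Between male and female neuroepithelium-like cells it differed by 4.48 for *Olig2*, 2.08 for *Nkx2-9*, 0.40 for *Nkx6-1* and -0.58 for *Gli2*, male minus female. The *Olig2* value rests on few UMIs in the female *Grhl3*-null cells. In the Mesenchyme 2-like cells the corresponding differences were -1.42 for *Ptch1*, -2.44 for *Hhip*, -0.84 for *Gli1* and 0.54 for *Gli3*. Cells of a sex come from an unknown number of the 5 and 3 pooled embryos, so sex and embryo cannot be told apart in these contrasts.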

How the results depend on the processing

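The replicate block left all 31 calls over the 12 classes and all cells in place and gained 8. Same-numbered libraries did not deviate together (correlations of their deviations 0.0081 over all cells, 0.031 in neuroepithelium-like and 0.081 in Mesenchyme 2-like cells), so the numbers do not pair the samples. With the block the members called were 2 in gut-like, 1 in intermediate mesoderm-like, 2 in notochord-like and 6 in paraxial mesoderm-like cells. These counts are given without the share of all genes called.

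Of the 31 calls, 31 were kept with DESeq2 size factors, 29 with no filter on low counts, 28 with doublets removed, 27 with log-normalised clustering, 25 with a stricter mitochondrial filter and 22 at resolution 0.8. DESeq2's Wald test kept 19 of 29, and clustering without the list genes 27 of 28. Without a library 25 to 28 were kept. Cells without posterior *Hox* UMIs (added after seeing the data) kept 18 of 30, male cells 13 of 28 and female cells 13 of 30.

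Directions turned in female cells over all cells for *Ptch1* (-0.060), *Gli1* (-0.24), *Nkx6-1* (-0.91) and *Olig2* (-1.55), in female neuroepithelium-like cells for *Ptch1* (-0.23), *Gli1* (-0.024), *Nkx6-1* (-0.11) and *Olig2* (-2.53), in female notochord-like cells for *Gli3* (-0.020) and in female paraxial mesoderm-like cells for *Hhip* (-0.33). In male cells they turned for *Ptch1* (-0.33) and *Hhip* (-0.24) of the Mesenchyme 2-like and *Ptch1* (-0.10) of the neuroepithelium-like cells, and at resolution 0.8 for *Gli2* of the Mesenchyme 2-like cells (-0.067). The cause was not tested.

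Counts of called members that left the range of 1.5 times were as follows. Except for the stricter fold change, the counts here and in the next paragraph are given without the share of all genes called. They are therefore not set against a background. With DESeq2's Wald test, Mesenchyme 1-like cells had 1, and gut-like, neuromesodermal progenitor-like, notochord-like, somitic mesoderm-like and surface ectoderm-like cells 0. With DESeq2 size factors, gut-like cells had 2 and the difference between notochord-like and gut-like effects 0. With no filter, Mesenchyme 1-like cells had 5, surface ectoderm-like 4, notochord-like 2 and gut-like 0. With a log2 fold change of at least 1 also required, the counts were 1 over all cells, 2 in neuroepithelium-like, 1 each in Mesenchyme 2-like, paraxial mesoderm-like and neuromesodermal progenitor-like, and 0 in Mesenchyme 1-like, notochord-like, somitic mesoderm-like and surface ectoderm-like cells. In female cells there were 5 over all cells, 4 in neuromesodermal progenitor-like, 2 in gut-like, 2 in somitic mesoderm-like, 1 in intermediate mesoderm-like and 0 in notochord-like and paraxial mesoderm-like cells. In male cells there were 2 in neuroepithelium-like, 2 in Mesenchyme 2-like and 0 in somitic mesoderm-like cells. Without posterior *Hox* UMIs there were 1 in neuroepithelium-like, 2 in Mesenchyme 2-like, 1 in surface ectoderm-like and 0 in gut-like and notochord-like cells.

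Clustering without the list genes gave 1 in intermediate mesoderm-like and 2 in notochord-like cells, and 4 and 2 for the differences between neuroepithelium-like and paraxial mesoderm-like and between notochord-like and gut-like effects. Log-normalised clustering gave 6 in neuromesodermal progenitor-like and 0 in notochord-like and somitic mesoderm-like cells. Resolution 0.8 gave 1 in neuroepithelium-like, 1 in Mesenchyme 2-like and 0 in somitic mesoderm-like cells. Doublet removal gave 1 in neuromesodermal progenitor-like and 0 in notochord-like cells, and the mitochondrial filter 0 in gut-like, notochord-like and somitic mesoderm-like cells. Leaving out a library gave 7 to 9 over all cells, 5 to 7 in neuroepithelium-like, 4 to 5 in Mesenchyme 2-like, 2 to 3 in Mesenchyme 1-like, 3 to 5 in paraxial mesoderm-like, 1 to 2 in neuromesodermal progenitor-like, 1 to 3 in surface ectoderm-like, 0 to 2 in gut-like and 0 to 1 in notochord-like, somitic mesoderm-like, endothelium-like and intermediate mesoderm-like cells, with 1 to 4 and 0 to 1 for the 2 differences between classes. In that fit a lone library is assumed to vary like the other genotype. Of 36 WT levels by class 10 moved, and thinning moved 16 of 16 shares of cells.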
